A study of Nicotiana tabacum with 54 samples.

Results

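Leaf genes of tobacco (Nicotiana tabacum) whose transcript levels varied most between the libraries of a single material are described here across leaf, stalk and root. A gene was eligible when it averaged at least 10 FPKM (fragments per kilobase of transcript, scaled to the mapped fragments of the library) over the 18 leaf libraries and at least 1 FPKM in stalk and in root, and when it was not among the 59 glutathione S-transferase genes (NtGST) of the study. Of 69500 genes in the tables, 13447 met these conditions. For each of them the standard deviation (SD) of log2(FPKM + 1) over the 3 leaf libraries was taken within each of the 6 materials, and the 200 genes with the highest mean of the 6 SDs were kept. Leaf values therefore chose these genes and are described without a test, and tests were run on stalk and root only.

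The materials carry the names GDH88, VxG88, Va116, Basma, HxB and Hongda. The sample titles write HxB and VxG88 with a multiplication sign, as crosses are written. Their letters match Hongda and Basma, and Va116 and GDH88, but the labels do not state the parents. Each gave 3 libraries of leaf, 3 of stalk and 3 of root, or 54 in all. All plants had been topped, which means that the flower head had been removed, and the labels give no further treatment. The methods of the study set biological replicates of 3 plants each for its plant material, but give the sequenced samples as earlier data of the group, taken a week after topping. Where the libraries were not from separate plants, p-values measure only the spread between these libraries, which may be technical. The deposited columns of each material are numbered 1 to 3 and the sample titles carry letters, so that the column number is used here only as the name of a library within its material and tissue. No source says that columns with the same number came from the same plants, plot, leaf position or day.

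Topping removes a strong sink for sugars and nitrogen from the plant and a main source of auxin, and the remaining leaves then thicken and ripen while the roots make more nicotine. In a field or greenhouse plant, leaf transcript levels also move with the hour of the day, light, wounding and the position of the leaf on the stalk. The labels used here give none of these for a library. The files pair no gene with a name or a function, and the identifiers (the Nitab4.5 series) have no entry in the reference table at hand, so the genes are described by identifier and value, and the tissue labels could not be checked against marker genes.

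The libraries were even in their totals. The leaf libraries summed to between 792647 and 823454 FPKM, those of stalk to between 768375 and 832327 and those of root to between 773020 and 818154, and 30198 to 37004 genes reached 1 FPKM. No read counts are in the files, and the depth of a library is unknown. When each library was matched to the materials by genes that differed among materials in the other tissues, 49 of 54 libraries came closest to their own material. The library labelled leaf VxG88 2 came closest to Va116 instead, and those labelled stalk VxG88 1, stalk GDH88 1, root Basma 1 and root GDH88 2 also came closest to another material. Without leaf VxG88 2, 179 of the 200 genes were chosen again, and no gene changed between the opposed groups described next. The other leaf libraries were the same in both choices, so this was largely fixed in advance.

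The mean leaf SD of the 200 genes had a median of 1.81 and a highest value of 3.79 on the log2 scale, against a median of 0.34 over all 13447 eligible genes, which include the 200. The last gene inside the limit had 1.53 (the rank before it 1.54) and the next genes outside it 1.53 and 1.52, so that the list ends within a continuous range. Of the NtGST genes, 24 met the level conditions, and none reached the limit. Their median leaf SD was 0.44, and the highest, 1.03 for NtGSTU40 (Nitab4.5_0000652g0050), would have ranked 900.

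The swings were shared. Each value was expressed as its deviation from the mean of its material on the log2(FPKM + 1) scale, and 72.7% of the variance of the scaled deviations of the 200 genes lay on a single principal component, against 36.6% for all eligible genes. By their correlation with this component (at least 0.5 or at most -0.5 over the 18 leaf libraries), 101 genes fell in a group called A, 80 in an opposed group called B, and 19 in neither. Between pairs of genes the median correlation was 0.89 within A, 0.80 within B and -0.79 between A and B, and 191 of the 200 genes had at least 1 partner with a correlation of 0.9 or more. These correlations are over 18 libraries that also chose the genes. Group A held 60 and group B 38 of the 100 most variable genes.

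**Figure D1:**
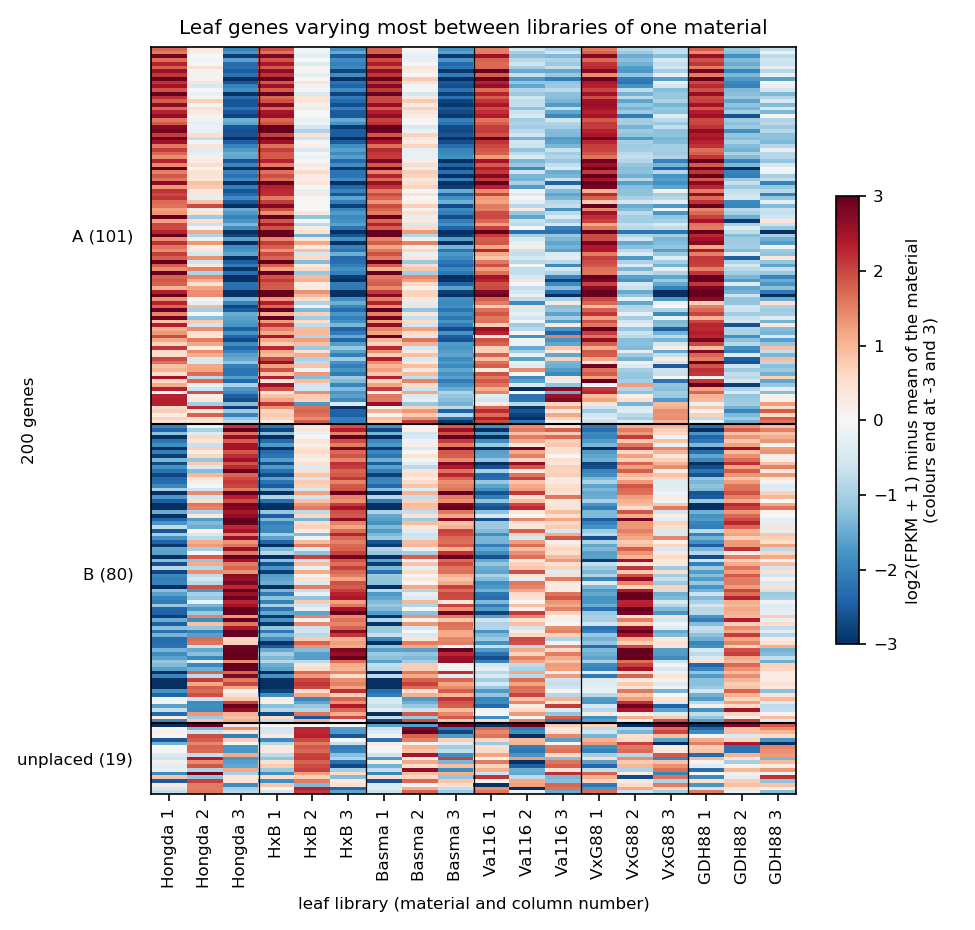
Deviation of log2(FPKM + 1) from the mean of the material for each of the 200 genes (down the page, in groups A, B and unplaced) in the 18 leaf libraries (across, 3 to a material). Group A is high in column 1 of all 6 materials and group B low, while columns 2 and 3 differ between the 3 materials on the left and the 3 on the right.

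The pattern followed the column number. In column 1, the median deviation of group A lay between 1.82 and 2.11 in the 6 materials and that of group B between -2.02 and -1.44, against -0.11 to -0.03 for all eligible genes. Column 1 was above the material mean in 6 of 6 materials for 91 of the 200 genes, all of group A, and below it in 6 of 6 for 73, all of group B, while 14% and 27.4% of all eligible genes met these conditions. As leaf values chose the genes and formed the groups, nothing further is read from these counts. In linear units, the mean of group A genes in column 1 was 5.81 times that of columns 2 and 3 at the median (1.06 to 66.6), and at least 10 times for 24 genes. For group B the mean of columns 2 and 3 was 7.25 times that of column 1 at the median (2.78 to 150.8), and at least 10 times for 26 genes.

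Columns 2 and 3 separated the materials into 2 sets, which were noticed after the values had been seen. Each set is a material named as a cross together with the 2 materials whose names match its letters. Pedigree and anything else shared within a set cannot be told apart here. In Hongda, HxB and Basma, column 2 lay between the others, with a median deviation of group A of 0.07 to 0.33, and column 3 was the opposite extreme of column 1, at -2.19 to -2.05. In Va116, VxG88 and GDH88, group A was low in column 2 (-1.19 to -0.77) and in column 3 (-1.14 to -0.86) alike. Group B had its highest values there in column 2 (1.13 to 1.48), with column 3 at -0.12 to 0.58, whereas in Hongda, HxB and Basma it was highest in column 3 (1.69 to 2.38). Averaged over the 3 materials of a set, 89 of 101 genes of group A fell in the order 1, 2, 3 in the first set, and 48 did so in the second, where 46 followed the order 1, 3, 2. Of the 80 genes of group B, 65 increased in the order 1, 2, 3 in the first set and 5 in the second, where 73 increased in the order 1, 3, 2.

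The swings were large in the summed transcript level. The 101 genes of group A together had 22053, 9685 and 1636 FPKM in columns 1, 2 and 3 of Hongda leaf, and the 80 genes of group B had 362.5, 2759 and 8428 FPKM. In GDH88 leaf, group A had 18389, 2007 and 3322 FPKM and group B had 624, 6019 and 3274 FPKM. Over the 18 leaf libraries, the 200 genes made up 0.905% to 2.84% of all FPKM, with the highest share in column 1 of every material. In bulk tissue, fewer cells of a type and less RNA per cell cannot be told apart.

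Among the genes of group A, Nitab4.5_0009232g0010 had the highest leaf SD of all 200. It had 268.5, 690.4 and 1302 FPKM (lowest, median and highest of the 6 materials) in column 1, 11.0, 89.2 and 376.6 FPKM in column 2, and 0, 3.56 and 9.89 FPKM in column 3. Column 3 lay below columns 1 and 2 without overlap, and columns 1 and 2 overlapped only because Hongda column 2 exceeded Va116 column 1. The next gene of group A, Nitab4.5_0002262g0090, had 87.8, 190.5 and 253.9 FPKM in column 1 and 0, 15.1 and 113.6 FPKM in column 2. In column 3 it was listed at 0 in 5 materials and at 3.62 FPKM in Hongda. Its columns 1 and 2 overlapped through Hongda column 2 alone, which exceeded column 1 of Va116 and VxG88.

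In group B, the most variable gene was Nitab4.5_0002405g0050, with 0.42, 8.24 and 43.5 FPKM in column 1, 147.5, 245.4 and 340.9 FPKM in column 2, and 203.2, 286.2 and 387.9 FPKM in column 3. Column 1 lay below the other columns without overlap, at 0.42 to 0.80 FPKM in Hongda, HxB and Basma and 15.7 to 43.5 FPKM in Va116, VxG88 and GDH88. Nitab4.5_0000175g0140 had 0.14, 0.29 and 1.02 FPKM in column 1, 5.09, 60.7 and 110 FPKM in column 2, and 19.7, 63.5 and 84.6 FPKM in column 3. Here the material sets differed in the place of column 2. It was at 5.09 to 18.0 FPKM in Hongda, HxB and Basma, below column 3 of each, and at 103.4 to 110 FPKM in Va116, VxG88 and GDH88, above column 3 of each.

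**Figure D2:**
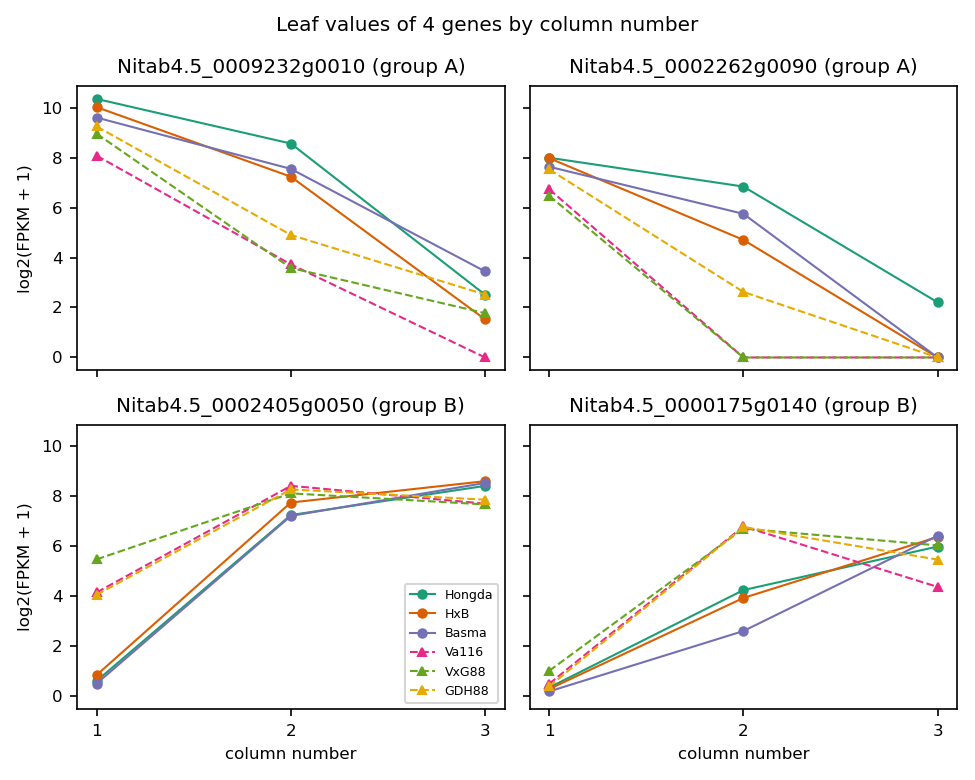
Leaf values of the 2 most variable genes of group A (upper panels) and of group B (lower panels), as log2(FPKM + 1), against column number, with a line for each material (circles and solid lines for Hongda, HxB and Basma, triangles and dashed lines for Va116, VxG88 and GDH88). Column 1 is highest in every material for the genes of group A and lowest for those of group B.

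The 19 genes in neither group were not without partners. Of these, 12 fell into 3 sets joined by leaf correlations of 0.9 or more, and 7 stood alone. The largest set, 6 genes led by Nitab4.5_0002882g0050, was high in column 2 of Hongda, HxB and Basma (median deviation 1.73, 1.90 and 1.06) and low in column 3 (-1.69, -2.30 and -0.90). In Va116 and GDH88 its column 2 was low (-2.74 and -0.72), and in VxG88 column 1 was (-1.80). A set of 4 genes, led by Nitab4.5_0001006g0050, followed another course, with its highest values in column 2 of HxB (2.15) and Basma (2.68) and in column 3 of Hongda (1.16), VxG88 (1.75) and GDH88 (1.29), and column 1 of Va116 (1.31).

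The pair Nitab4.5_0000003g0900 and Nitab4.5_0011716g0020 divided the materials as columns 2 and 3 did. In leaf their median deviation in column 1 was -2.51, -1.88 and -2.41 in Hongda, HxB and Basma, and 0.38, 0.86 and 0.80 in Va116, VxG88 and GDH88. In root, column 1 of this pair was low in Hongda, HxB, Basma, Va116 and GDH88 (-2.48, -1.32, -1.54, -1.15 and -0.65) and high in VxG88 (0.58). The most variable gene outside both groups, Nitab4.5_0002806g0050, had 0, 0 and 37.7 FPKM in column 1, 0, 84.5 and 238.9 FPKM in column 2, and 0, 30.7 and 378.3 FPKM in column 3. It was listed at 0 in all 3 leaf libraries of HxB, and its closest partner had a correlation of 0.65.

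The choice did not rest on a single material. When the 200 genes were chosen from 5 materials, their median SD in the remaining one was 1.61 to 2.06, against 0.31 to 0.36 for all eligible genes in that material, and 84% to 94.5% of the genes chosen exceeded the 90th percentile. Between 176 and 185 of them were among the 200 genes. This overlap was largely fixed in advance, since both choices share the SDs of 5 materials and the same level conditions over all leaf libraries.

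The genome position of the genes is not known here, but the first part of an identifier was taken as the scaffold of the assembly. The 200 genes lay on 192 scaffolds, and 16 of them formed 8 pairs on a shared scaffold. Of these pairs, 3 joined genes of the same group and 3 joined a gene of A with a gene of B. The neighbours Nitab4.5_0000640g0140 and Nitab4.5_0000640g0150 of group B had a leaf correlation of 0.98, and Nitab4.5_0001006g0040 and Nitab4.5_0001006g0050, both unplaced, had 0.98. Reads of near-identical copies could have been divided between such neighbours, which was not tested.

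Stalk and root entered the choice only through the mean of at least 1 FPKM, not through their spread, and the question there was whether the same genes vary between libraries of a material. In stalk the 200 genes had a median SD of 1.12 (0.87 in group A, 1.29 in group B), against 0.32 for all eligible genes, and 127 genes (63.5%) were among the most variable 10% of the eligible genes. In root the median was 0.90 (0.80 in group A, 0.96 in group B), against 0.40, and 116 genes (58%) were among the most variable 10%. The leaf spread chose the genes and is not compared with these values. The same 200 genes were not the most variable ones everywhere. Among the 200 most variable of all 13447 eligible genes were 40 of them in stalk, 33 in root and 19 in both.

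Their levels also differed between the tissues. Group A had a median of mean levels of 36.4 FPKM in leaf, which compares with 7.98 FPKM in stalk and 4.33 FPKM in root. Group B had 27.4, 31.5 and 44.7 FPKM, and all eligible genes had 22.2, 20.7 and 18.1 FPKM. The choice asked for at least 10 FPKM in leaf but only 1 FPKM in stalk and root. A higher level in leaf is therefore partly set by the choice. Restricted to genes with a mean of at least 10 FPKM in the tissue itself, the median SD was 1.27 over 127 of the 200 genes in stalk, against 0.30 over all eligible genes at that level, and 1.08 over 104 genes in root, against 0.37.

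**Figure D3:**
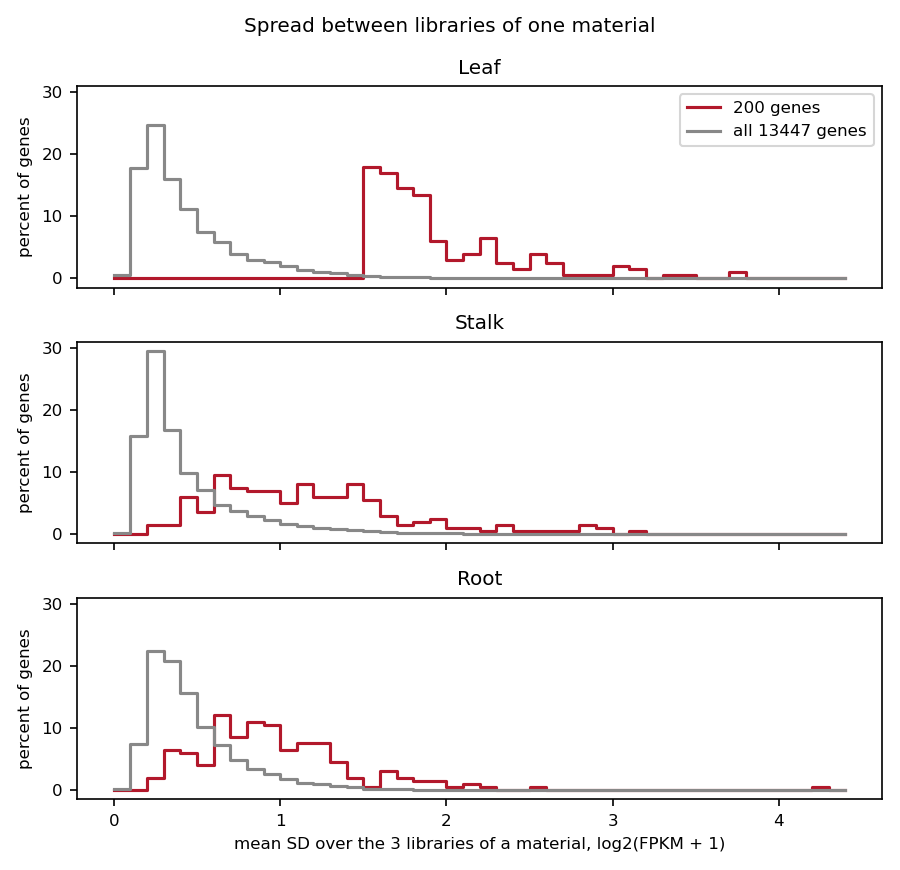
Distribution of the mean SD of log2(FPKM + 1) over the 3 libraries of a material in leaf, stalk and root, as percent of genes in bins of 0.1, for the 200 genes and for all 13447 eligible genes. The leaf panel shows the choice itself, and in stalk and root the 200 genes are centred at 1.12 and 0.90, above 0.32 and 0.40 for all eligible genes.

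The groups formed in leaf were opposed in the other tissues too. The medians of A and B deviated in opposite directions in 16 of 18 stalk libraries and 16 of 18 root libraries, beside 15 of 18 in leaf. The median pair correlation over 18 libraries was 0.40 within A, 0.47 within B and -0.44 between them in stalk, and 0.50, 0.53 and -0.47 in root. The median over libraries of the absolute value of these group medians was 0.49 for group A and 0.60 for group B in stalk, and 0.31 and 0.50 in root. In leaf, whose values chose the genes and formed the groups, it was 1.51 and 1.46. All eligible genes shared part of their swings too. A single principal component held 47.2% of the variance of the scaled deviations of the 200 genes in stalk and 53.9% in root. For all eligible genes it was 29.8% and 43.2%. For each gene the deviations of the 3 libraries of a material cancel out, so the 18 libraries are not independent.

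In stalk, column 1 had high A and low B in 5 materials by their labels. For 2 of these, the column 1 library came closest to another material. The library labelled VxG88 1 matched HxB at a correlation of 0.83 and VxG88 at -0.28. That labelled GDH88 1 matched Basma at 0.28 and GDH88 at 0.15. The median deviation of group A in column 1 was 0.39 in HxB, 0.46 in Basma, 0.92 in Va116, 0.60 in VxG88 and 0.63 in GDH88, and that of group B was -0.36, -0.78, -1.53, -0.55 and -1.16. Hongda differed, with group A at -0.52 in column 1 and 0.84 in column 2, and group B at 0.52 and -1.0. The place of column 2 followed the leaf sets in part, since group A was low in column 2 of Va116, VxG88 and GDH88 (-0.51 to -0.48) and at or above the material mean in that of Hongda, HxB and Basma (0.00 to 0.84). Group A deviated to the same side as in the leaf library of the same name in 17 of 18 stalk libraries, and group B in 14. This was not particular to the groups. Over all eligible genes, the deviations of stalk and leaf libraries of the same name correlated positively in 16 of 18 (mean 0.24).

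In root, column 1 was highest for group A in all 6 materials, but by unequal amounts. Among these libraries, that labelled Basma 1 came closest to HxB (correlation 0.40, against 0.14 for Basma). The median deviation of group A in column 1 was 1.11 in Hongda, 0.68 in HxB and 0.86 in Basma, and 0.35, 0.04 and 0.27 in Va116, VxG88 and GDH88. Group B was at -1.18, -0.94 and -0.90 in the first set and at -0.73, -0.18 and -0.37 in the second. Column 1 of Hongda, HxB and Basma root also had the most genes at 1 FPKM or more (37004, 35845 and 36062, against 30198 to 34311 in the other 15 root libraries), and all eligible genes had a median deviation there of 0.38, 0.19 and 0.22. The part of this in the swings of A and B was not tested. Group A deviated to the same side as in the leaf library of the same name in 14 of 18 root libraries, and group B in 15. Over all eligible genes, the deviations of root and leaf libraries of the same name correlated positively in 13 of 18 (mean 0.14).

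**Figure D4:**
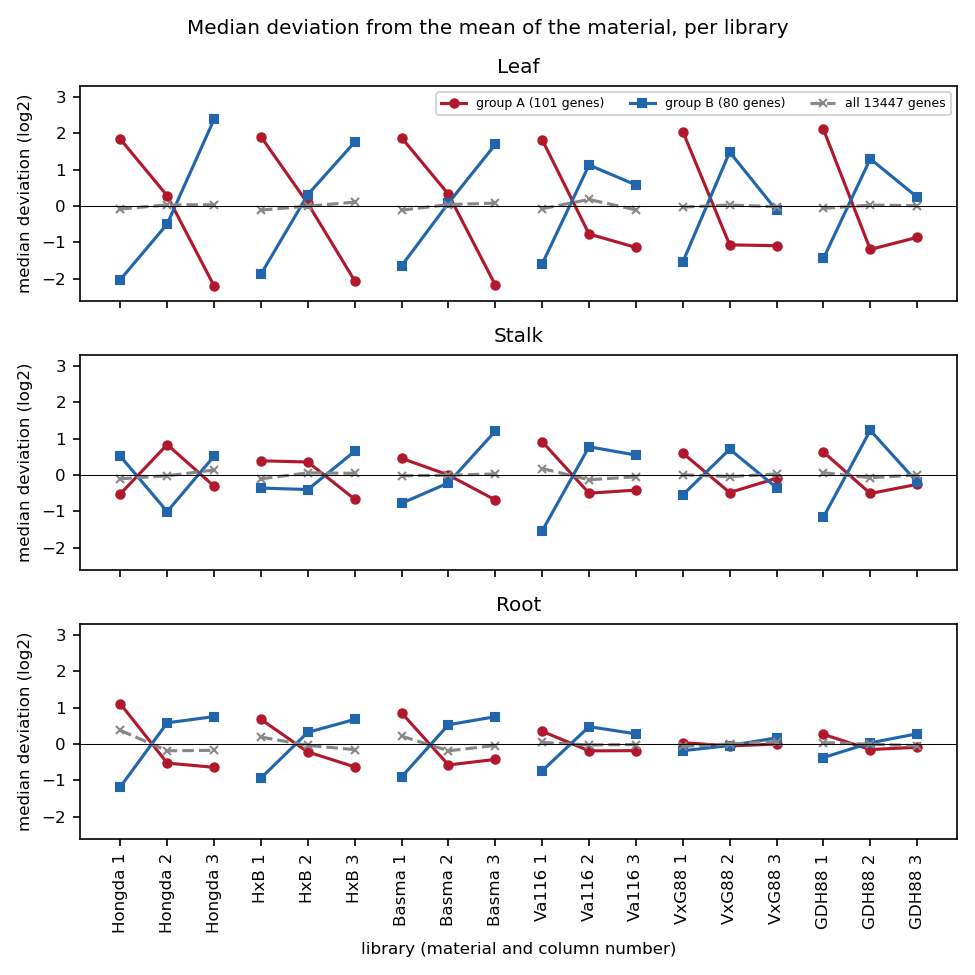
Median deviation of log2(FPKM + 1) from the mean of the material for group A, group B and all eligible genes in each library of leaf, stalk and root, with lines joining the 3 libraries of a material. The groups are opposed in 15 of 18 leaf, 16 of 18 stalk and 16 of 18 root libraries, and stalk Hongda is the material whose column 1 runs against the others.

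Whether single genes moved with the column number was tested in stalk and in root with limma's F test over the 3 column numbers on log2(FPKM + 1), with material as a term, and p-values adjusted by the Benjamini-Hochberg method over all genes kept. In stalk, 0 of 199 genes passed an adjusted p of 0.05 (the remaining gene was below the level filter), and 0% of all genes tested did. The count of the 199 was also 0 under every alternative fit, those without single libraries included. At an unadjusted p under 0.05 there were 59 of the 199 (29.6%), against 3.90% of all genes tested. They comprised 31 genes of group A, all with a higher mean in column 1 than in columns 2 and 3, 27 of group B, all with a lower one, and 1 unplaced gene. The F test takes in any difference among the 3 columns, and the difference of column 1 from the mean of columns 2 and 3, given here for direction and size, was not tested by itself. In stalk, column 1 was above the material mean in 6 of 6 materials for 1 gene and below it for 14, against 0.967% and 1.41% of all eligible genes.

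Among these genes, Nitab4.5_0000175g0140 of group B had 0.42, 1.80 and 17.6 FPKM (lowest, median and highest of the 6 materials) in column 1 of stalk, 3.32, 8.55 and 19.6 FPKM in column 2, and 23.1, 24.2 and 57.5 FPKM in column 3. The log2 difference of column 1 from the mean of columns 2 and 3 was -2.29 ± 0.45 (SE, 18 libraries). The F test over the 3 columns in limma had an adjusted p of 1.00 (0.0618 to 1.00 under the alternatives). Nitab4.5_0002405g0050 had 1.22, 72.3 and 126.6 FPKM in column 1, 71.6, 115.4 and 145.3 FPKM in column 2, and 158.7, 183.4 and 233.95 FPKM in column 3. For both genes column 3 lay above the other columns without overlap, which in leaf was so for neither of them.

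The 2 named genes of group A had no such separation by column in stalk. Nitab4.5_0009232g0010 had 16.0, 42.4 and 76.7 FPKM in column 1, 3.71, 21.1 and 79.4 FPKM in column 2 and 3.60, 10.5 and 22.1 FPKM in column 3, and the columns overlapped. Nitab4.5_0002262g0090 had 16.4, 76.3 and 214.3 FPKM in column 1, 1.27, 31.6 and 91.2 FPKM in column 2, and 6.57, 49.8 and 139.5 FPKM in column 3. In limma's F test neither of these genes passed (adjusted p 1.00 for each).

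In root, 47 of the 200 genes passed the same F test, where 2.45% of all genes tested and 3.15% of the eligible genes did. Of these, 25 had a higher mean in column 1 than in columns 2 and 3 (1.18% of all genes tested and 1.44% of the eligible genes) and 22 a lower one (1.27% and 1.71%). Of group A, 23 of 101 passed with column 1 higher and none with column 1 lower. Of group B, 21 of 80 passed with column 1 lower and 2 with column 1 higher, and 1 unplaced gene passed with column 1 lower. Column 1 was above the material mean in 6 of 6 materials for 29 of the 200 genes, against 9.65% of all eligible genes, and below it for 34, against 4.79%. The count of 47 rests on few libraries: it was 0 without the material Hongda, HxB or Basma, and also 0 without the root libraries of column 1 of these 3 materials. It was 86 without VxG88, and 31 without Va116 or without GDH88.

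Relative to all eligible genes, which were higher in column 1 of root by a median log2 difference of 0.22, group A was higher by 0.89 at the median and group B lower, at -1.29. Of 101 genes of group A, 92 had a positive difference, and 72 of 80 genes of group B a negative one. Of the 13447 eligible genes, 9623 (71.6%) had a positive difference in root and 3824 a negative one. In stalk the medians were 0.67 for group A and -0.88 for group B, against 0.00 for all eligible genes. There 88 of 101 were positive and 75 of 80 negative, while of the eligible genes 6638 (49.4%) were positive and 6809 negative. A difference in the column effect between root and stalk was tested as an interaction of column number and tissue in limma, and 0 of the 200 genes passed, where 0.0147% of all genes tested did. At an unadjusted p under 0.05 there were 20 genes (10%), against 14.2% of all genes tested and 12.4% of the eligible genes.

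**Figure D5:**
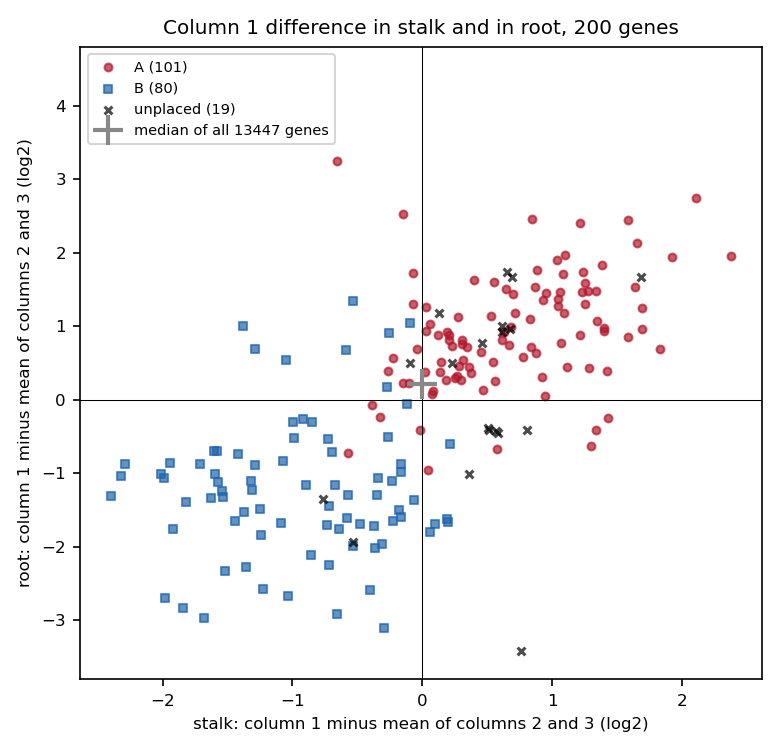
Difference of column 1 from the mean of columns 2 and 3 in log2(FPKM + 1), averaged over the 6 materials, in stalk (horizontal axis) and root (vertical axis), with a point for each of the 200 genes and a cross for the median of all eligible genes. Group A lies mostly at upper right (88 of 101 positive in stalk, 92 in root) and group B mostly at lower left (75 of 80 negative in stalk, 72 in root). Of all eligible genes, 49.4% were positive in stalk and 71.6% in root.

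The named genes of group B passed in root at low levels. Nitab4.5_0002405g0050 had 0, 0.39 and 1.13 FPKM in column 1, 0.88, 1.52 and 2.56 FPKM in column 2, and 1.38, 3.12 and 7.60 FPKM in column 3. Its log2 difference between column 1 and the others was -1.31 ± 0.23 (SE, 18 libraries), and the F test over the 3 columns in limma had an adjusted p of 0.0236 (0.0187 to 0.477 under the alternatives). Nitab4.5_0000175g0140 had 1.06, 1.81 and 2.14 FPKM in column 1, 1.20, 2.93 and 4.45 FPKM in column 2, and 3.2, 5.65 and 11.8 FPKM in column 3. Its log2 difference was -0.87 ± 0.24, and the F test, which also takes in column 3 against column 2, had an adjusted p of 0.0498 in limma (0.0177 to 0.478 under the alternatives). On this scale, changes of such low genes are understated.

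The named genes of group A did not pass in root. Nitab4.5_0009232g0010, with the largest swing in leaf, had 9.07, 27.0 and 162.0 FPKM in column 1 of root, 8.35, 53.4 and 160.1 FPKM in column 2, and 3.50, 54 and 76.4 FPKM in column 3, and its log2 difference was -0.42 ± 0.62. The F test over the 3 columns in limma gave it an adjusted p of 0.766. Nitab4.5_0002262g0090 was at 0 to 11.6 FPKM in all 18 root libraries, with a log2 difference of 0.43 ± 0.56 and, in the F test over the 3 columns in limma, an adjusted p of 0.668. The unplaced gene Nitab4.5_0002806g0050 was listed at 0 in 5 of 6 root libraries of column 1, and ran up to 459.6 FPKM in column 2 and 908.2 FPKM in column 3. Its log2 difference was -3.41 ± 1.88, and the F test over the 3 columns in limma had an adjusted p of 0.410.

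None of the 200 genes passed a test for a difference among materials in stalk or root, but few of all genes did, and 0 is near that share. The 200 genes also varied more within a material (median SD 1.12 against 0.32 for all eligible genes in stalk, and 0.90 against 0.40 in root). Such spread lowers the power of this test, so nothing particular to these genes is read from the counts. With limma's F test over the 6 materials, 0 of 199 genes differed in stalk, where 0.403% of all genes tested and 0.29% of the eligible genes did. In root 0 of 200 differed, where 0.307% and 0.283% did. At an unadjusted p under 0.05 there were 7 genes in stalk (3.52%, against 5.32% of all genes tested) and 5 in root (2.5%, against 5.14%).

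Root and stalk levels differed for many of the genes, at about the rate of all genes. Of the 200, 126 passed in limma (root minus stalk, adjusted p under 0.05), where 68.1% of all genes tested and 67.4% of the eligible genes did. There were 54 genes higher in root, where 26.8% of all genes and 21.3% of the eligible genes were, and 72 lower in root, where 41.3% and 46.1% were. Of group A, 17 of 101 genes were higher and 43 lower in root, and of group B, 31 of 80 were higher and 22 lower. Each library is scaled to its own total, so these are shares of the transcripts of each tissue.

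At the median of the libraries, the widest differences were over 100 FPKM in one tissue against a few in the other. Nitab4.5_0003858g0010 of group B had 134.1, 316.9 and 487.3 FPKM (lowest, median and highest of 18 libraries) in root and 0.61, 1.94 and 7.13 FPKM in stalk, a log2 difference of 6.41 ± 0.18 (SE) with an adjusted p of 4.05e-24 in limma. Nitab4.5_0002771g0030 of group A had 194.3, 557.7 and 1842 FPKM in root and 0.22, 5.61 and 133.9 FPKM in stalk, a log2 difference of 6.04 ± 0.46. The groups of 18 libraries did not overlap for either gene, though the stalk values of the second spread widely.

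The reverse was found for 2 other genes of group A. Nitab4.5_0027240g0010, which had the highest mean leaf level of the 200 genes (1402 FPKM), had 0.68, 2.29 and 8.94 FPKM in root and 39.2, 180.8 and 736.1 FPKM in stalk, a log2 difference of -5.80 ± 0.37. Nitab4.5_0004645g0020 had 0.41, 2.11 and 12.9 FPKM in root and 55.5, 126.1 and 442.1 FPKM in stalk, a log2 difference of -5.38 ± 0.27. In leaf these genes had 57.9, 1203 and 3651 FPKM and 25.7, 156.1 and 1152 FPKM, so that each spanned more than a 10-fold range between leaf libraries. Leaf spread chose these genes, so this range is not read as a result.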

How the data were processed

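Total RNA of 54 tobacco samples was sequenced as 2 × 150 bp reads on Illumina instruments. The authors deposited a table of FPKM values for each tissue; the tools in their processing notes are HISAT2, StringTie and RSEM, with no version. Genome build and options were not given in the sources used here. Their unit follows the legend of the study, and sums per library are even enough that the values could be TPM. They were used as deposited, and columns were assigned to material and tissue by name. Topping is given by the sample labels.

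Effects of column number, material and tissue were fitted on log2(FPKM + 1) by limma (version 3.58.1, under R 4.3.3), allowing the variance to follow the level. A gene entered a fit if 3 or more of its libraries had 1 FPKM or more. The two-sided p-values (limma F or moderated tests) underwent Benjamini-Hochberg adjustment over all genes kept. The fits of column number (an F test over the 3 numbers) and of root against stalk had material as a term. Deviations, principal components and SDs were computed with Python 3.11.15, numpy 2.4.6 and pandas 2.3.3, and plots with matplotlib 3.10.9. The members, the groups and the tests were chosen with earlier results of these data known. The genes given with values are the 2 of each group and the unplaced gene with the highest leaf SD, and the 2 highest and 2 lowest of those called between root and stalk. Leading genes of the unplaced sets and pairs on a shared scaffold were named after their values had been seen. The fit of column number was tested on simulated data holding 100 changed genes of each size (at a mean log2 level above 3). It found 49 in stalk and 43 in root at a log2 change of 1, and 75 and 81 at a log2 change of 2, with 3 and 8 false calls. The simulated deviations were independent between genes. Swings shared between genes, which the real libraries hold, were not simulated, so these false calls do not cover them. The interaction test, the material sets and the fits without single libraries were chosen after seeing the data. No group has more than 3 libraries, so tests for outlying libraries within a group were not run. Alternatives were another pseudocount (0.1), no filter, quantile normalization, no trend, a replicate block, each column number or material left out, and other limits for the choice.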

Additional observations from a re-analysis of the deposited data

How the results depend on the processing

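The medians of A and B were opposed in at least 83.3% of the stalk and of the root libraries under every alternative. No gene changed between A and B when the genes were chosen again, which was largely fixed in advance. Only genes chosen again could change, the leaf values were largely the same, and the groups were named by their larger overlap with A and B. Leaving out column 1 left 82 of the 200 genes, the fewest of these alternatives. The count of genes that changed with the column number in root (47 by the F test, with column 1 higher for 23 of A and lower for 21 of B) was the least stable. It was 29 (14 in A and 13 in B) with no filter on low values, 0 in each case without Hongda, HxB or Basma, 31 without Va116 (15 in A), 86 without VxG88 (40 in A and 40 in B), 31 without GDH88 (14 in A) and 0 without column 1 of Hongda, HxB and Basma together, a fit added after seeing the data. Without a single column number it was 0 to 12 (0 to 4 in A, 0 to 7 in B), partly as fewer libraries remain. For the other counts and spreads, leaving out a column number gave 0 to 1 genes that differ among materials in stalk, a median spread of 0.85 to 1.23 in stalk and 0.59 to 0.87 in root, and 26 to 59 and 20 to 51 genes among the 200 most variable of stalk and of root. With a pseudocount of 0.1 the median spread in stalk was 1.38, and with a mean of at least 30 FPKM in leaf, 52 of the genes were among the 200 most variable of root. Directions were compared only for the genes given with values, not for all that passed, and turned only for those of them that had not passed. Nitab4.5_0002806g0050 in stalk was at -0.19 without Va116 and at -0.47 without VxG88 or its stalk library of column 1. In root, Nitab4.5_0009232g0010 was at 0.072 without Hongda and 0.61 without column 1 of Hongda, HxB and Basma, and Nitab4.5_0002262g0090 at -0.74 without these same libraries. The cause was not tested.

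The deviations of same-numbered libraries of different materials correlated above 0.1 in 31 of 45 leaf pairs (mean 0.36), 17 of 45 stalk pairs (mean -0.02) and 26 of 45 root pairs (mean 0.17). Between tissues, libraries of the same material and number were compared over all eligible genes. Their deviations correlated above 0.1 in 15 of 18 pairs of stalk with leaf (mean 0.24). For root with leaf it was 10 of 18 (mean 0.14), and for root with stalk 7 of 18 (mean -0.02). As not every pair did so and no label states a pairing, the numbers were not taken as pairing the samples. Leaf values followed the column number in part, and stalk went with leaf in most pairs. With a replicate block, 139 genes differed between root and stalk (126 without it), and 0 differed among materials in stalk and 0 in root. Values without read counts give no depth, so counting error could not be set apart.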

Other observations

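The direction of column 1 in leaf reached well beyond the 200 genes. Among the genes ranked 201 to 400 by leaf SD, column 1 was above the material mean in all 6 materials for 65 and below it for 78, and among those ranked 401 to 800 for 102 and 167. Of the 12647 genes ranked below 800, 39.4% kept a single direction in all 6 materials (12.8% above and 26.6% below), at a median leaf SD of 0.32. These values describe the same leaf libraries that chose the 200 genes and were not tested.

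The set of 6 unplaced genes led by Nitab4.5_0002882g0050 deviated to the same side as in the leaf library of the same name in 13 of 18 stalk libraries and 11 of 18 root libraries. The set of 4 genes led by Nitab4.5_0001006g0050 did so in 8 of 18 stalk libraries and 9 of 18 root libraries.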
